A study of Mus musculus with 2 samples.

Results

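Chromatin boundaries that lie beside several gene starts were examined in mature olfactory sensory neurons of the mouse. A boundary is a position that separates stretches of chromosome rich in internal contacts. The set comprised every autosomal boundary with 2 or more protein-coding gene starts within 10 kb of its 5 kb interval, which was 489 of 7435 boundaries in the list and 6.95% of the 7035 on chromosomes 1 to 19. Each gene counted once, by its 5′-most base in GENCODE release M21 on GRCm38. The choice used no measured value other than the boundary positions, so the strength score and class of each boundary could be compared freely.

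The neurons expressed the odorant receptor gene Olfr16 (MOR23) and were sorted by green fluorescence; the donors were untreated adult MOR23-GFP mice, both sexes mixed, whose olfactory epithelium was taken and whose strain is unspecified. In situ Hi-C joins DNA fragments that are neighbours in the nucleus and counts the junctions, and it was run on 28000 sorted cells for replicate 1 and 24400 for replicate 2, after fixation in 1% formaldehyde and digestion with DpnII. The 2 replicates formed 1 group with no second condition, and the authors called boundaries on their combined contacts. The list therefore has no value per replicate and no depth, and the p-values below measure the spread between boundaries and between chromosomes, not between animals. A list of boundaries holds no expression data, so the identity of the sorted cells was not checked here.

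Boundaries in mammals often form where the insulator protein CTCF halts cohesin as it extrudes loops of DNA, and active gene starts are another place where they are found. Gene starts can stand back to back and be read outwards (divergent), face each other (convergent) or follow each other on the same strand (tandem). Here these words describe only the order and strands of annotated starts, so opposite-strand genes that overlap at their 5′ ends also count as convergent. Divergent starts a short distance apart often share a promoter rich in CG dinucleotides and drive genes of general upkeep, whereas tandem neighbours are often copies of the same ancestral gene.

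The 489 boundaries held 1102 starts, and 0 starts were shared between them. There were 392 boundaries with 2 starts, 77 with 3, 14 with 4, 5 with 5 and 1 with 6. Read from left to right, 240 boundaries were divergent (minus strand first, then plus, with 1 change of strand), 99 convergent (plus, then minus), 115 tandem and 35 mixed, with more than 1 change. Of the starts, 93 belonged to genes with clone or predicted names, and 3 symbols stood for 2 gene records at the same boundary (Atp5o by the naming rule, and Chtf8 and Igsf5, chosen after values were seen). Chromosome 11 contributed 53 boundaries, 12.96% of its own, the highest share of any autosome.

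At 112 of the boundaries a divergent pair lay at most 300 bases apart, so the whole promoter between the starts can be shown. The following sequences run from the base after the first start to the base before the second, on the plus strand of GRCm38 and read from the reference genome. They were picked from the 14 highest-scored such gaps of at least 20 bases without an annotated exon, to show the range of motifs. Capitals mark exact matches, on either strand, to the GC box GGGCGG, the CCAAT box (its letters are its name), the core of ETS factor sites, CCGGAAG, or the core of NRF1 sites. The TATA box TATAAA was searched too and is in none of them.
Polr3a and Rps24, chr14:24487059-24487124: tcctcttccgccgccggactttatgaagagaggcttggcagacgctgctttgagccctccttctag
Noc4l and Ddx51, chr5:110653418-110653450: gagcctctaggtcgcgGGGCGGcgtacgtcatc
Mepce and Zcwpw1, chr5:137787656-137787797: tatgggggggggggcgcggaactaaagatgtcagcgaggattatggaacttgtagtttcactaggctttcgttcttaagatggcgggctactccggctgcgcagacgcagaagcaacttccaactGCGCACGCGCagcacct
Ptcd2 and Mrps27, chr13:99344706-99344785: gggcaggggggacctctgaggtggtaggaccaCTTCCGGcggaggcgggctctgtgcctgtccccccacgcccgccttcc
Rnf151 and Rps2, chr17:24718064-24718115: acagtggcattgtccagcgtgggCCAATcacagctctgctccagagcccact
Srsf7 and Ttc39d, chr17:80207308-80207459: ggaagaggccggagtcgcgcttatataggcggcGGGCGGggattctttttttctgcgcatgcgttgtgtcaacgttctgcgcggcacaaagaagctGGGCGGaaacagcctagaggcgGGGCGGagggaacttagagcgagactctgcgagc

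These boundaries were all Strong. The authors give each boundary a class, Strong or Weak, and in the file the lowest Strong score is 0.5004 and the highest Weak score 0.4999. Polr3a, the largest subunit of RNA polymerase III, and Rps24, a protein of the small ribosomal subunit, both start inside the interval chr14:24485001-24490000, 67 bases apart, at a boundary scored 2.78. Noc4l and Ddx51, both genes of ribosome assembly, start 34 bases apart and just over 8 kb to the right of a boundary scored 2.32. Mepce, the capping enzyme of 7SK RNA, and Zcwpw1, a histone reader of meiosis, belong to a boundary scored 2.01. Ptcd2, a mitochondrial RNA-binding protein gene, and Mrps27, a mitochondrial ribosomal protein gene, both start inside a boundary scored 1.91. Rps2, another ribosomal protein gene, is 1 of 5 starts at a mixed boundary scored 1.44, and Srsf7, a splicing factor gene, starts inside one scored 1.401.

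Boundaries with several starts were not set apart in score from boundaries with 1 start. Their median score was 0.696 (quartiles 0.391 and 1.06) against 0.679 (0.388 and 1.12) for the 1515 autosomal boundaries with 1 start, so the quartiles nearly coincide. A linear fit over all autosomal boundaries, with chromosome as a term and errors clustered by chromosome, gave a mean difference of -0.0382 ± 0.0265 (SE, 95% interval -0.0938 to 0.0174, n = 7035 boundaries, adjusted p = 0.333 by Benjamini-Hochberg over 16 contrasts). The median was above that of 1-start boundaries on 10 of 19 chromosomes.

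Boundaries without any start scored lower. Their median was 0.485, and the fitted difference from boundaries with several starts was 0.0951 ± 0.0192 (SE, n = 7035 boundaries, adjusted p = 0.000545). The median of boundaries with several starts was higher on 17 of 19 chromosomes. With GC content of the interval and a CTCF match as further terms, the difference was 0.0178 (n = 7035, adjusted p = 0.669), and among Strong boundaries alone it was -0.0507 (n = 3733, adjusted p = 0.171).

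The class showed the same order. Of the 489 boundaries 319 were Strong, 65.2%, where 53.1% of all autosomal boundaries were Strong. The share was 63.7% with 1 start and 48.7% with none. The fitted difference was 15.7 ± 2.22 percentage points (SE) from boundaries without a start (adjusted p = 2.1e-05) and 1.12 ± 2.40 points from those with 1 start (95% interval -3.93 to 6.17, n = 7035, adjusted p = 0.74). When only starts inside the interval counted, which left 80 boundaries, the difference from 1 start was 13.4 points and passed the test.

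**Figure D1:**
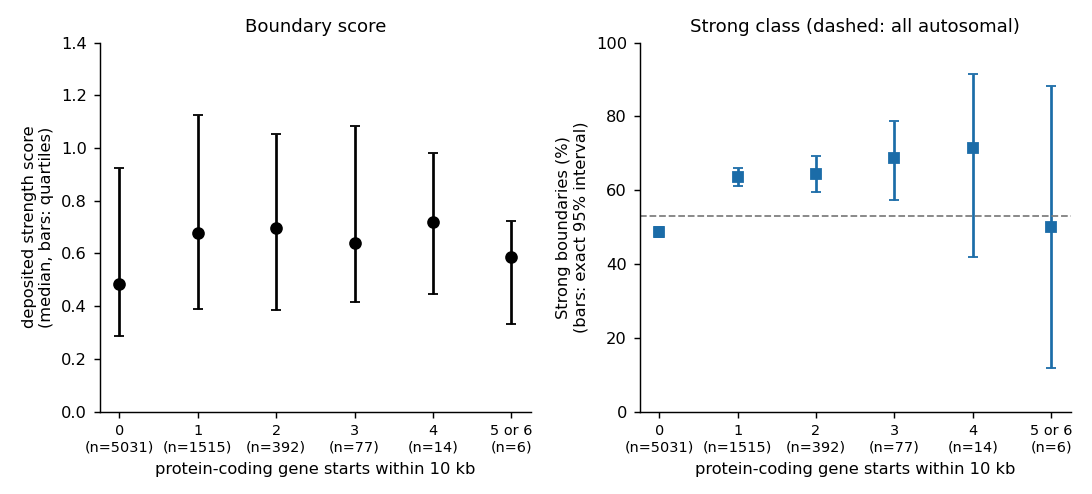
Score and class of autosomal boundaries by the number of protein-coding starts within 10 kb. Points on the left are median scores with quartiles, and on the right percentages of Strong boundaries with exact 95% binomial intervals that cover counting error only. Median scores were 0.485 with 0 starts, 0.679 with 1 start and 0.697 with 2 starts, and the dashed line is the 53.1% of all autosomal boundaries.

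Scores were also given by the number of starts. The median was 0.697 with 2 starts, 0.640 with 3 and 0.718 with 4. Boundaries with 3 or more starts differed from those with 2 by -0.0395 ± 0.0508 (SE, 95% interval -0.146 to 0.0673, n = 489, adjusted p = 0.669). When only starts inside the interval counted, with 80 boundaries, the difference was -0.208 and passed the test. Among the 100 highest-scored autosomal boundaries 4 had several starts, and among the 100 lowest 3 did, where the whole set makes up 6.95% of the autosomal list.

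Boundaries on either side of the limit of 10 kb were set side by side. At 46 boundaries the second-nearest start lay 9 to 10 kb away, and their median score was 0.753 with 34 Strong. At 45 boundaries it lay just beyond, up to 11 kb, and these had a median of 0.749 with 29 Strong. Nearest to the limit on the inside was the boundary of 1110032A03Rik and Alg9, an enzyme gene of protein glycosylation, with a second start at 9.98 kb and a score of 1.00. The first one outside, with a second start at 10.02 kb, was that of Rnf223 and 9430015G10Rik, scored 1.53.

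No difference in score between strand arrangements passed the test. Median scores were 0.654 (quartiles 0.380 and 1.04) for divergent, 0.807 (0.445 and 1.06) for convergent, 0.648 (0.413 and 1.06) for tandem and 0.649 (0.349 and 1.13) for mixed boundaries. Against tandem boundaries, divergent ones differed by 0.00661 (95% interval -0.106 to 0.120, n = 489, adjusted p = 0.912). Convergent ones differed by 0.0532 (-0.110 to 0.216, n = 489, adjusted p = 0.669) and mixed ones by 0.00988 (-0.176 to 0.196, adjusted p = 0.912). Strong boundaries made up 64.2% of divergent, 68.7% of convergent, 64.3% of tandem and 65.7% of mixed boundaries.

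**Figure D2:**
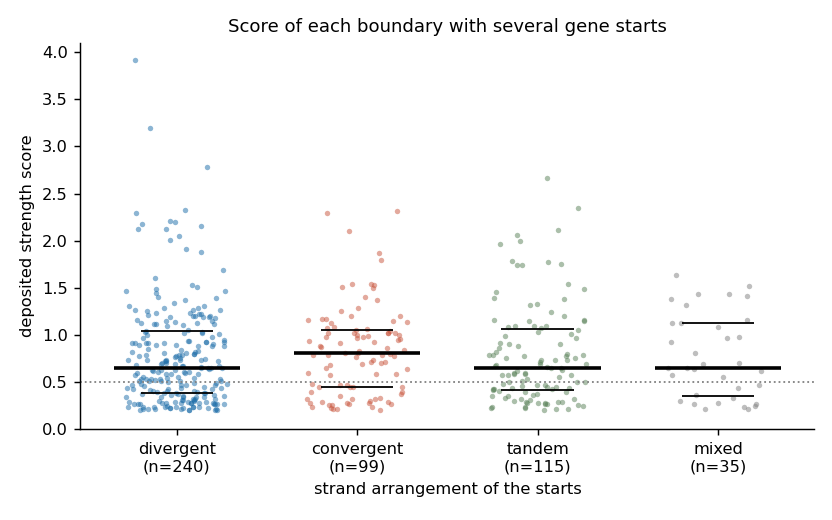
Deposited score of each of the 489 boundaries by strand arrangement. Each point is a boundary, thick lines are medians, thin lines are quartiles, and the dotted line marks the score of 0.5 that separates Weak from Strong. The 4 classes overlap, with medians of 0.654, 0.807, 0.648 and 0.649.

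The divergent class held the 3 highest scores. At 3.91, the boundary at chr11:3195001-3200000 lies between Sfi1, a centrosome protein gene that starts 1.54 kb to its left, and Eif4enif1, which encodes a carrier of the translation factor eIF4E and starts 2.39 kb to its right. The next, chr5:144765001-144770000 at 3.20, has the start of Trrap, a scaffold of histone acetyltransferase complexes, inside it and that of Tmem130 3.18 kb to the left. The third is that of Polr3a and Rps24 described above. The boundary of Nle1, a gene of ribosome assembly, and Unc45b, a myosin chaperone of muscle, whose starts both lie to its left, scored 2.29. The one between Wap, a milk protein gene, and Ramp3, a calcitonin receptor partner, scored 2.21. The starts of Wap and Ramp3 were 19884 bases apart. At the low end were the boundaries of Patl2 and Terb2 (0.201) and of Fam227a and Cby1, a regulator of Wnt signalling (0.205), both with starts under 300 bases apart. Those of 4930518I15Rik and Rab5if (0.201) and of Uba3 and Arl6ip5 (0.206) were also low, with starts 5182 and 5042 bases apart.

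Scores of the 115 divergent boundaries with a pair at most 1 kb apart ran from 0.201 to 2.78. They had a median of 0.735 and the other 125 a median of 0.598. The fitted difference in mean score was 0.0317 ± 0.0666 (SE, n = 240, adjusted p = 0.74). Strong boundaries made up 72.2% of the first group and 56.8% of the second; these shares were not tested.

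At convergent boundaries the facing starts were mostly close. The 99 boundaries each held 1 facing pair, and 70 of these pairs (70.7%) had starts at most 1 kb apart. The median over all 99 pairs was 0.515 kb. For starts this close, convergent or divergent depends on where the annotation places each 5′ end. Whether such pairs share 1 promoter region was not tested. The highest scores belonged to Gorasp2, a Golgi stacking protein gene, with Gm26558 (2.31), and to Bcl6, a transcriptional repressor of germinal centre B cells, with Gm37419 (2.29). Ccdc122 and Lacc1, an enzyme gene of macrophages, both start inside a boundary scored 2.11, 132 bases apart. Kdm5a, a histone H3K4 demethylase gene, and Ccdc77 scored 1.80. At the low end, Foxj3 and Frg2f1 scored 0.204, and Ncbp1, a subunit of the nuclear cap-binding complex, and Tstd2 scored 0.213.

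At the 115 tandem boundaries the midpoint of the interval lay between the starts in 76 of 126 neighbouring pairs (60.3%), against 27.1% of the 240 divergent pairs at divergent and 14.1% of the 99 convergent pairs at convergent boundaries. Tandem starts were also farther apart, with a median of 9.74 kb against 1.65 kb for divergent pairs, so these shares are not independent of spacing. The highest score, 2.67, was that of the odorant receptor genes Olfr543 and Olfr544 on chromosome 7. It was followed by the 2 gene records of Atp5o, a subunit of mitochondrial ATP synthase (2.35), by Psmg3, a proteasome assembly factor, with Gm26938 (2.11), and by Psmd1, a subunit of the proteasome cap, with 2810459M11Rik (2.06). The odorant receptor genes Olfr1392 and Olfr10 had a boundary scored 2.00 between their starts. At the low end, Gnai3, an inhibitory G protein subunit gene, and Gpr61 scored 0.207.

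Slightly more starts pointed away from the midpoint than towards it, which was not tested. To its left 322 of 568 starts were on the minus strand (56.7%), and to its right 295 of 534 were on the plus strand (55.2%). At boundaries with 1 start these shares were 54.3 and 52.5%. Within the divergent class they were 65.3 and 66.5%, which the class itself favours. A start lay inside the 5 kb interval at 213 boundaries (43.6%), and at 80 boundaries 2 or more did. Whether a start was inside made a difference of -0.0420 ± 0.0595 (SE, n = 489, adjusted p = 0.669) in the score.

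**Figure D3:**
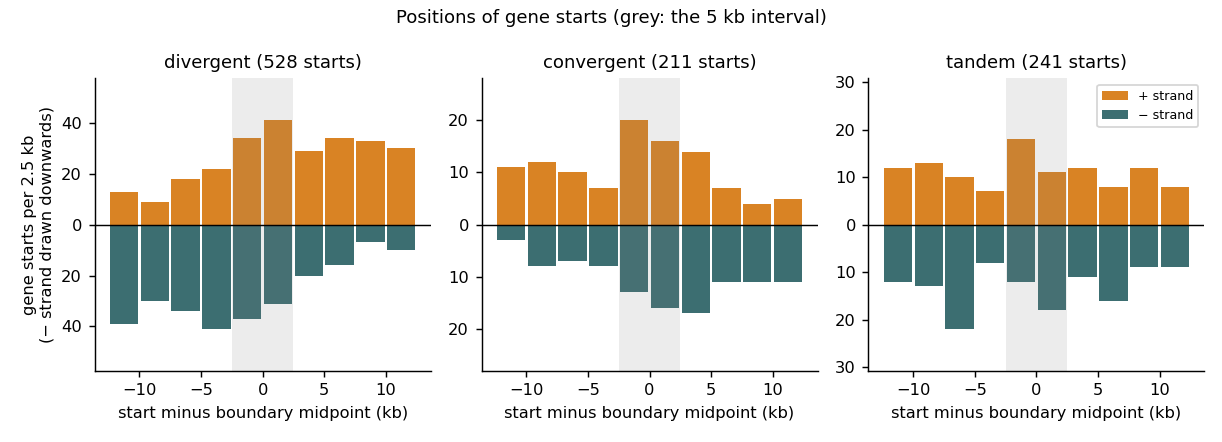
Positions of gene starts relative to the midpoint of the boundary, in bins of 2.5 kb. Starts on the plus strand are drawn upwards and those on the minus strand downwards, for 528 starts at divergent, 211 at convergent and 241 at tandem boundaries; grey bands mark the 5 kb interval. At divergent boundaries minus-strand starts are more frequent on the left and plus-strand starts on the right.

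The arrangements were also set against the genome. Across the autosomes there were 7595 neighbouring pairs of protein-coding starts at most 25 kb apart, of which 613 (8.07%) lay at 1 boundary. The share was 10.97% of 2535 divergent pairs (exact 95% interval 9.78 to 12.2%), 9.36% of 1442 convergent pairs (7.91 to 10.98%) and 5.53% of 3618 tandem pairs (4.81 to 6.32%). Much of this difference went with spacing, since close starts fit a 25 kb window more easily and tandem pairs were farther apart. With the distance between the starts and chromosome as terms, divergent pairs were at a boundary more often than tandem pairs by 1.84 ± 0.65 percentage points (SE, n = 7595 pairs, adjusted p = 0.0447). For convergent pairs the difference was 1.60 ± 0.668 points (SE, n = 7595 pairs, adjusted p = 0.0873). Of the 135 convergent pairs at a boundary, 84 had starts at most 1 kb apart, where the class rests on the exact annotated 5′ ends. The divergent call was lost when same-strand starts at most 500 bases apart were counted once (1.32 points) and among Strong boundaries only (0.929 points). Without chromosome 11 it was lost too (1.93 points), while the convergent difference then passed (2.02 points).

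**Figure D4:**
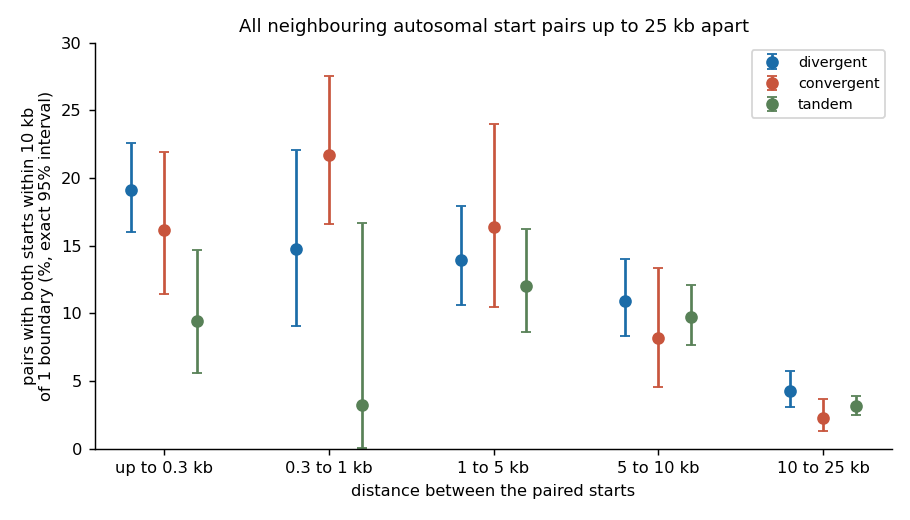
Percentage of neighbouring start pairs with both starts within 10 kb of the same boundary, by distance between the starts and by arrangement, with exact 95% binomial intervals that cover counting error only. For starts up to 0.3 kb apart the shares were 19.1% of divergent, 16.2% of convergent and 9.44% of tandem pairs, and from 10 to 25 kb they were 4.29, 2.27 and 3.12%.

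Pairs that textbooks give as examples of divergent promoters were looked up. Brca1, a DNA repair gene, and Nbr1, an autophagy receptor gene, start 194 bases apart inside a Weak boundary scored 0.376. For 10 of the pairs the starts were not at 1 boundary, and distances from the nearest boundary ran from 11.8 kb (Mrps12 and Sars2, measured from Mrps12) to 117.4 kb (Mcm4 and Prkdc, measured from Mcm4).

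Sequence differed between the groups. Median GC content of the interval was 46.6% (quartiles 43.5 and 50.0%) with several starts, 45.0% with 1 start and 41.9% with none. The fitted difference from boundaries with 1 start was 1.48 ± 0.24 percentage points (SE, n = 7035, adjusted p = 6.4e-05). When only starts inside the interval counted, it was 0.483 points and did not pass the test. Among the 489 boundaries the median was 48.1% where a start lay inside and 45.1% where none did. The number of DpnII sites per interval, on which the assay's resolution depends, had a median of 12 with several starts, with 1 start and with none.

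Exact matches to the CTCF consensus, searched on both strands within 10 kb, were found at 149 of the 489 boundaries (30.5%, exact 95% interval 26.4 to 34.8%), where 24.0% of all autosomal boundaries had one. The share was 26.5% with 1 start, a fitted difference of 3.37 ± 1.92 points (SE, n = 7035, adjusted p = 0.257). With a limit of 25 kb for gene starts the difference was 6.06 points and passed the test. Matches were at 35.7% of tandem, 31.7% of divergent and 24.2% of convergent boundaries; convergent and tandem ones differed by -11.5 ± 7.03 points (SE, n = 489, adjusted p = 0.274). The following are 4 of the 5 highest-scored boundaries that had a match outside annotated exons, those of Gdf7 and Hs1bp3 named after values were seen, with 20 bases on each side; capitals mark the match, written in the direction of the consensus.
Atp5o, minus strand, chr16:91935321-91935372: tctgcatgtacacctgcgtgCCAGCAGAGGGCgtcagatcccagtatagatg
Bcl6, plus strand, chr16:23984343-23984394: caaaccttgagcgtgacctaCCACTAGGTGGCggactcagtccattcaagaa
Gdf7 and Hs1bp3, minus strand, chr12:8306715-8306766: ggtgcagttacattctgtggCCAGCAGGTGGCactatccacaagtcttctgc
Psmd1, plus strand, chr1:86059609-86059660: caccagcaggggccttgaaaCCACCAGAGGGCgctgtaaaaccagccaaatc

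These matches lay between 0.760 and 2.15 kb from the midpoint of their boundaries, which scored 2.35, 2.29, 2.15 and 2.06. The match left out, at the boundary of Wap and Ramp3 (2.21), lay 7.59 kb from the midpoint. The 3 highest-scored boundaries of the set, those of Sfi1, Trrap and Rps24, had no match, which says only that these letters are absent from the window. A match is a sequence and not a measured binding site.

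Promoter sequence was described from RefSeq, which gave 1037 promoters of 300 bases for 829 of the 1099 distinct gene symbols of the set. The GC box GGGCGG was in 53.7% of them and in 48.3% of 19174 promoters of autosomal protein-coding genes. Genes of divergent pairs at most 1 kb apart had it in 68.0% of 266 promoters. CCGGAAG was in 26.7% of these 266 promoters and in 12.1% of all, the NRF1 core in 16.5% and 6.74%, CCAAT in 42.5% and 37.5%, and TATAAA in 3.38% and 12.1%. Gaps at and away from boundaries were set side by side. Between divergent starts at most 300 bases apart, GGGCGG was in 50.9% of 112 gaps at boundaries and 46.9% of 473 elsewhere, CCAAT in 31.2 and 31.3%, and CCGGAAG in 15.2 and 13.7%. Promoters of convergent genes had CCGGAAG in 30% of 210 and those of tandem genes in 16.4% of 214. None of these shares was tested.

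The genes had a median length of 10.97 kb (quartiles 4.85 and 27.5 kb), against 17.6 kb for all 20807 autosomal protein-coding genes and 23.3 kb for genes at boundaries with 1 start. It was 16.9 kb in the divergent class, 12.3 kb in the convergent, 7.02 kb in the tandem and 6.47 kb in the mixed class. A rule that asks for several starts in 25 kb favours short genes, so the lengths are a description. Neighbouring boundaries were close too, with the nearest other boundary at a median of 170 kb against 185 kb with 1 start and 210 kb with none.

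Members of gene families were found mainly in tandem, both at boundaries and away from them. Symbols with a shared root, a rough sign of related genes, made up 16.5% of 200 tandem pairs at boundaries, 5.19% of 135 convergent and 3.60% of 278 divergent pairs. Among pairs not at a boundary these shares were 29.2, 13.01 and 10.8%, higher in each arrangement, which was not tested.

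By function, 25 gene lists were counted. Of all 20807 autosomal protein-coding starts, 1102 were at boundaries with several starts, 5.30%. Near any boundary, within 10 kb of it, were 2617 of the 20807, 12.58%. Of these 1102 starts, 528 were at divergent, 211 at convergent, 241 at tandem and 122 at mixed boundaries. Strong boundaries were 319 of the 489 (65.2%). Cytosolic ribosomal protein genes had 29 of 80 starts near any boundary (36.25%). At boundaries with several starts they had 16 of 80 (20%, exact 95% interval 11.9 to 30.4%). They sat at 14 boundaries with a median score of 0.551, 8 of them Strong, in all 4 arrangements. The 4 highest-scored with a start inside were Rps24, Rpl3l, a muscle paralogue, and Rpl9 and Rpl35, genes of the large subunit, with 2.78, 1.44, 1.00 and 0.597. Rps2 and Rpl3l share the mixed boundary with Ndufb10.

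Translation initiation factor genes had 9 of 52 starts at such boundaries (17.3%), 7 of the 9 boundaries Strong. Of those that start inside the interval, Eif6, Eif1a, Eif4a1 and Eif4a3 were at Strong boundaries scored 1.33, 0.925, 0.787 and 0.723, and Eif4e2 at a Weak one scored 0.460. Mitochondrial ribosomal protein genes had 10 of 77 (12.99%), 7 of them divergent, where 528 of all 1102 starts were. Mrps27 (1.91), Mrpl12 (0.616) and Mrpl22 (0.346) start inside the interval and Mrpl2 (0.423) at 1.23 kb. Complex I genes, which serve the entry step of the respiratory chain, had 6 of 44 (13.6%). All 6 boundaries were Strong, where 65.2% of the whole set were. Of these, Ndufaf2 shares its boundary (0.814) with Ercc8, a gene of transcription-coupled repair, and Ndufb2, Ndufb10 and Ndufaf5 had scores of 0.682, 1.44 and 0.551.

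RNA polymerase subunit genes had 4 of 28 (14.3%, exact 95% interval 4.03 to 32.7%). All 4 were divergent, where 528 of the 1102 starts of the whole set were. Polr3a, Polr3d and Polr3c, which encode subunits of RNA polymerase III, had scores of 2.78, 1.20 and 0.242. Chaperone genes had 11 of 83 (13.3%), among them Hspb6 (0.707), Dnajc16 (0.476), Cct2 (0.918) and Dnajb3 (0.299). DNA repair and replication genes had 8 of 93 (8.60%), 7 of them divergent. Pole3, Ercc8, Brca1 and Brca2 started inside boundaries scored 0.948, 0.814, 0.376 and 0.217. Lists of ATP synthase and vacuolar ATPase (5 of 42), mitochondrial carrier (4 of 43), proteasome (4 of 47), splicing (5 of 65), ubiquitin protease (3 of 50) and cilium transport genes (1 of 22) had shares from 4.55 to 11.9%. The 5 ATP synthase and vacuolar ATPase starts include both gene records of Atp5o. Aminoacyl-tRNA synthetases (1 of 37), vesicle traffic genes (2 of 64) and other solute carriers (10 of 315) ran from 2.70 to 3.17%, and Mediator genes had 0 of 28, for which the exact interval reaches 12.3%.

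Histone genes stood close together at few boundaries. All 15 of 80 histone starts near a boundary were at boundaries with several starts (18.8%). Of all autosomal starts, 12.58% were near any boundary and 5.30% at boundaries with several starts. Of the 15 histone starts, 14 lay at 4 boundaries of the Hist1 cluster on chromosome 13. The boundary with Hist1h4a, Hist1h3a and Hist1h1a beside Trim38 was Strong with 2.12, and the other 3 were Weak, with 5 histone starts (0.467), 4 (0.212) and 2 (0.218). The last histone gene, H3f3b, named after its value was seen, was at a Weak boundary on chromosome 11 scored 0.281. Hox genes, which pattern the body axis, had 5 of 39 starts. Those of Hoxd13, Hoxd12 and Hoxd11 were with Evx2 at a Strong boundary scored 0.838, whose interval holds the start of Hoxd13.

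The odorant and vomeronasal receptor, zinc finger, keratin and protocadherin lists had shares below the 5.30% of all starts. For keratin and protocadherin genes the exact interval reached above that share. Odorant receptor genes, of which each neuron expresses 1, had 25 of 1128 starts (2.22%, exact 95% interval 1.44 to 3.25%) at 16 boundaries, 11 of them Strong. Of the 25, 19 were tandem, where 241 of the 1102 starts of the whole set were. At 9 boundaries both starts were odorant receptor genes. Besides those of Olfr543 and of Olfr1392, these included Olfr12 with Olfr1410 (1.15) and Olfr90 with Olfr91 (0.695), both Strong. Olfr690 with Olfr691 (0.236) and Olfr608 with Olfr607 (0.211) were Weak. Zinc finger genes had 9 of 385 (2.34%) and keratin genes 2 of 113 (1.77%, exact upper limit 6.25%). Vomeronasal receptor genes had 0 of 327 and clustered protocadherin genes 0 of 57, with exact upper limits of 1.12 and 6.27%. Of 33 autosomal genes of mature olfactory sensory neurons 1 was at such a boundary, Gng13, a G protein subunit of odorant signalling, at a Strong mixed boundary scored 0.928 with Chtf18 and Rpusd1. The exact 95% interval of this share ran from 0.0767 to 15.8%, which includes the 5.30% of all starts. Near any boundary were 7 of these 33 starts (21.2%), where 12.58% of all autosomal protein-coding starts were.

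**Figure D5:**
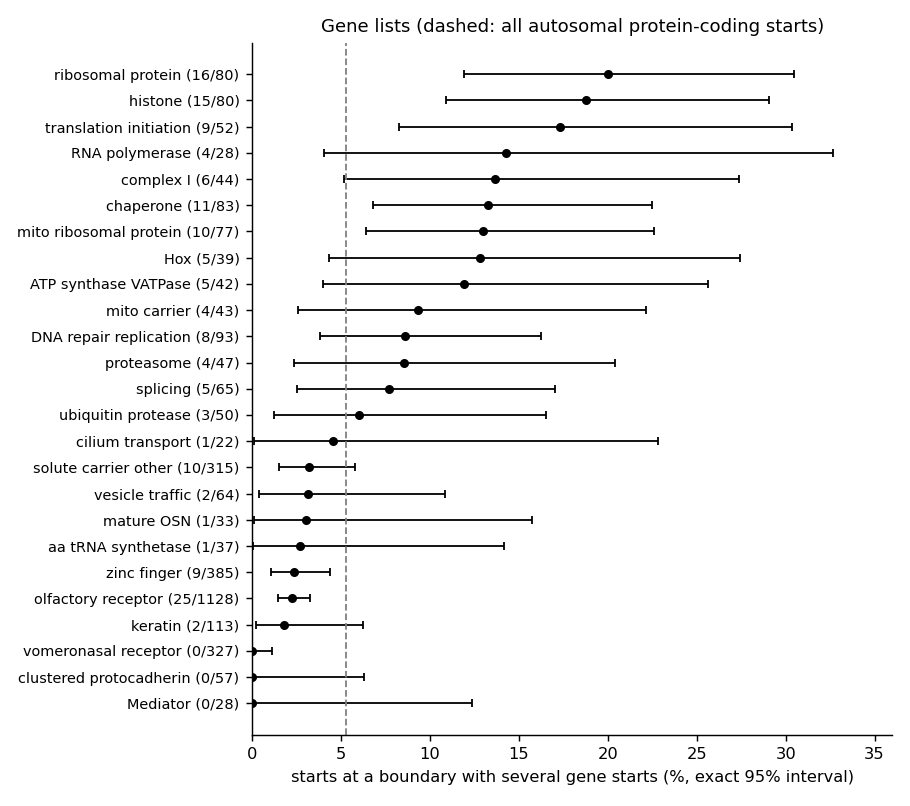
Percentage of each list's autosomal starts that lie at a boundary with several starts, with exact 95% binomial intervals that cover counting error only and counts in brackets. The dashed line is 5.30% of all autosomal protein-coding starts; cytosolic ribosomal protein genes reach 20% and odorant receptor genes 2.22%.

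The boundaries with the most starts are given by their genes. The only one with 6, chr7:30550001-30555000, was Strong with 0.707, close to the median of the set, and held the starts of Hspb6, a small heat shock protein gene, Proser3, Lin37, a subunit of the DREAM repressor of the cell cycle, U2af1l4, a splicing factor gene, Gm49396 and Psenen, a subunit of gamma-secretase. Boundaries with 5 starts scored 1.44 (Rnf151, Rps2, Ndufb10, Rpl3l and Msrb1), 0.727 (Ring1, H2-Ke6, Slc39a7, Rxrb and Col11a2), 0.467 (5 Hist1 genes), 0.285 (Fzr1, Dohh, Gm48551, Gm48552 and Smim24) and 0.240 (Nek8, Tlcd1, Rpl23a, Rab34 and Proca1). Ring1 encodes a Polycomb ubiquitin ligase, Rxrb a nuclear receptor, Fzr1 an activator of the anaphase-promoting complex and Rab34 a GTPase of cilium formation. These scores spanned both classes.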

How the data were processed

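In situ Hi-C of sorted Olfr16-expressing neurons gave 1 boundary list. The series' design text derives the list from 1 contact matrix that combines both replicates, on GRCm38. The deposited score and class are the authors' own and were used unchanged. How the score was computed, and with which aligner, caller or filters, is not stated in what was used here, and depth is unknown.

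Gene starts came from GENCODE M21 and sequence from the RefSeq copy of GRCm38; boundaries and genes lay within its chromosome lengths. Starts within 10 kb of the interval were counted in base pairs. Differences were fitted by ordinary least squares (statsmodels 0.14.6) with chromosome as fixed effect and errors clustered over 19 chromosomes; p-values are two-sided and adjusted over 16 contrasts. The fits were tested on simulated data. Boundaries are neighbours on chromosomes and not replicates. Gene lists and motif shares are counts without a test. Genes were named by rule: those at the 8 highest- and 4 lowest-scored divergent and tandem, 6 highest and 3 lowest convergent and 4 highest mixed boundaries, the 10 with most starts, the 10 highest-scored with a divergent pair at most 300 bases apart, the 3 on each side of the distance limit and those with 2 genes of a list, up to 4 genes per list nearest a boundary, and textbook divergent pairs; the text uses a part of these. The set and the lists were chosen with earlier results of these data known. The X chromosome, with 9 such boundaries of 400, was left out by the rule. Alternatives changed the distance for a start, the gene records, the chromosomes, the class, the score's scale and the covariates. Some genes that the naming rule selects are not reported here.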

Additional observations from a re-analysis of the deposited data

How the results depend on the processing

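No paired analysis was possible because the list holds 1 pooled value per boundary and no replicate values. Of 166 alternative values of the tested contrasts, 133 kept direction and side of the threshold. The number of boundaries with several starts was 277 within 5 kb, 1233 within 25 kb, 80 with starts inside the interval and 319 among Strong boundaries. Calls lost were, for several starts against none in score, starts inside (0.0859) and GC and CTCF terms (0.0178), and for GC content, starts inside (0.483 points). The divergent minus tandem difference in pairs at a boundary lost its call within 25 kb (1.97 points), inside the interval (0.533), with same-strand starts counted once (1.32), with manually annotated genes (1.88), without chromosome 11 (1.93) and with Strong boundaries (0.929); distance in 4 bins, chosen after seeing the data, gave 1.81 and kept the call. Calls gained were the CTCF difference from 1 start within 25 kb (6.06 points), the convergent pair difference without chromosome 11 (2.02 points) and, with starts inside, the Strong share against 1 start (13.4 points) and the score of 3 or more starts against 2 (-0.208). Direction turned, with none of the turned values passing, as follows. With starts inside, the score against 1 start was 0.0389, and the CTCF differences were -2.64 (from 1 start), 13.3 (divergent) and 2.45 points (convergent). Within 25 kb the CTCF differences were 5.22 (divergent) and 1.3999 points (convergent), and close divergent pairs scored -0.0119. Within 5 kb these were 1.16 points (divergent) and -0.0168. With Strong boundaries, the score against none was -0.0507, the CTCF difference from 1 start -0.278 points and the close divergent difference -0.124. Divergent minus tandem score was -0.000409 without the chromosome term, -0.02 on the log2 scale and -0.752 as percentile; 3 or more starts against 2 gave 0.177 as percentile. Mixed minus tandem score was -0.024 with same-strand starts counted once, -0.0037 with manually annotated genes and -0.0187 without the chromosome term. The effect of a start inside was 0.00352 without chromosome 11. The causes were not tested, but only 80 boundaries remain with starts inside. With starts inside, the mixed class and the inside contrast could not be fitted, and with Strong boundaries the Strong share has no value.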
